A study of Mus musculus with 21 samples.

Results

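Granulocyte-macrophage progenitors (GMP) are the committed bone marrow cells that give rise to neutrophils and monocytes. Their expression after loss of Dot1l was measured on 9 arrays, chosen by their sample titles from the 21 arrays of the series. Of the 9, 5 came from controls and 4 from Dot1l-deleted mice. DOT1L is the enzyme that methylates histone H3 at lysine 79, a mark laid down over the bodies of transcribed genes. It binds elongation factors of the AF9, ENL and AF10 families, the same proteins that fuse to MLL in leukaemia, and in MLL-rearranged leukaemia the mark is known for sustaining the HOXA cluster. The comparison asks what losing both Dot1l alleles does to expression in GMP.

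Mice of both groups carried the Mx-Cre transgene on a strain background labelled C57/BL6 and were given pIpC, which induces the interferon-driven Cre. Controls were of genotype Dot1 wt/wt x Mx-Cre, labelled wild type, so Cre and pIpC are shared by both groups. The other mice were Dot1l fl/fl x Mx-Cre, labelled Dot1l -/-. The Mx promoter answers interferon in many tissues, so the deletion is not limited to GMP or to blood cells. Cells were sorted from bone marrow by surface markers, and no age or number of mice is given in the sources used here. Array names carry a K number. Values by array are given in the order K1601, K1602, K1603, K1604 and K1581 for controls and K1190, K1272, K1359 and K1421 for Dot1l-deleted GMP. Levels are log2 of the deposited intensities. No label ties an array to an animal of its own, so p-values cover the spread among these samples only, and precision is limited by how many arrays there are.

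The Dot1l-deleted arrays K1190 and K1272 were nearly alike. Their Spearman correlation over 18194 genes was 0.988 with a median absolute log2 difference of 0.20, while the next closest pair of any kind had 0.40. Both arrays carried signal of the Y-linked genes Eif2s3y, at 8.14 and 7.77, and Kdm5d, at 7.07 and 7.19, together with high Xist, the X-inactivation RNA, at 11.92 and 11.56. Kdm5d was at 7.48 on control K1581, whose Xist was high as well. Controls K1603 and K1604 had low Xist, at 6.24 and 6.16, and the other 3 controls lay between 12.19 and 13.42. Control K1603 was the array least like its group, with a mean Spearman correlation of 0.81. The bacterial spike-in bioB was 9.35 to 11.16 on control arrays and 8.71 to 9.67 on Dot1l-deleted arrays. The gap between 3' and 5' Gapdh probe sets was 2.24 to 3.17 and 2.24 to 2.67. The upper quartile of the log2 levels averaged 7.31 ± 0.36 (SD, n = 5) over control arrays and 7.44 ± 0.24 (n = 4) over deleted ones. The part of these differences in the results was not tested, apart from the values given without the arrays concerned.

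The labelled cell type was checked against its markers, which were bright in both groups. Mpo, the myeloperoxidase of primary granules, averaged 13.79 ± 0.18 (SD, n = 5) over control arrays and 13.79 ± 0.16 (n = 4) over deleted ones, and the elastase gene Elane at 13.45 ± 0.23 and 13.09 ± 0.47. Among sort markers, Cd34 was at 8.30 ± 1.26 and 9.22 ± 0.60, the Fc receptor gene Fcgr3 at 9.88 ± 0.63 and 9.82 ± 0.91, and Fcgr2b at 7.62 ± 1.83 and 9.51 ± 0.29. Kit, the stem cell factor receptor, was at 6.49 ± 0.78 and 7.73 ± 0.39. Il7r, which marks lymphoid progenitors, was at 2.92 ± 0.27 and 2.86 ± 0.36. None of these passed the test between genotypes, with limma adjusted p between 0.30 for Kit and 0.989 for Mpo.

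Dot1l itself was read by 2 probe sets, and the groups overlapped on each of them. The brighter read 6.55, 6.95, 6.83, 6.73 and 6.63 in controls and 6.29, 5.62, 6.36 and 6.60 after deletion. Only the deleted K1421 lay within the control range. The log2 fold change was -0.52 ± 0.24 (SE), with a limma adjusted p of 0.411 over all probe sets, and that of the dimmer probe set was -0.54 ± 0.53, with an adjusted p of 0.62. On the dimmer probe set the deleted K1359 had 7.22, above all 5 controls. The sources used here do not state whether either probe set lies in the deleted part, so these levels do not check the labels.

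Over all 18194 genes, limma fitted to the 9 arrays with Benjamini-Hochberg adjustment called 18 genes at an adjusted p under 0.05. Of these 11 rose, 0.0605% of all genes, and 7 fell, 0.0385%. In none of the 18 did the groups overlap, while 1.81% of all genes were higher and 2.97% lower on every deleted array than on every control. The changes were large, from 1.85 to 3.35 on the log2 scale. When K1190 and K1272 were averaged and counted as 1 sample, limma called 0 genes, with a smallest adjusted p of 0.0991 and 1357 genes at an unadjusted p under 0.05, against 2378 with 9 arrays. The count was also 0 without either of these arrays or without both, and moved between 2 and 46 as other single arrays were left out. It was 2 without control K1581, 5 without K1602, 7 without K1603 and 9 without K1604, and it was 11 without deleted K1421 and 46 without deleted K1359.

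**Figure D1:**
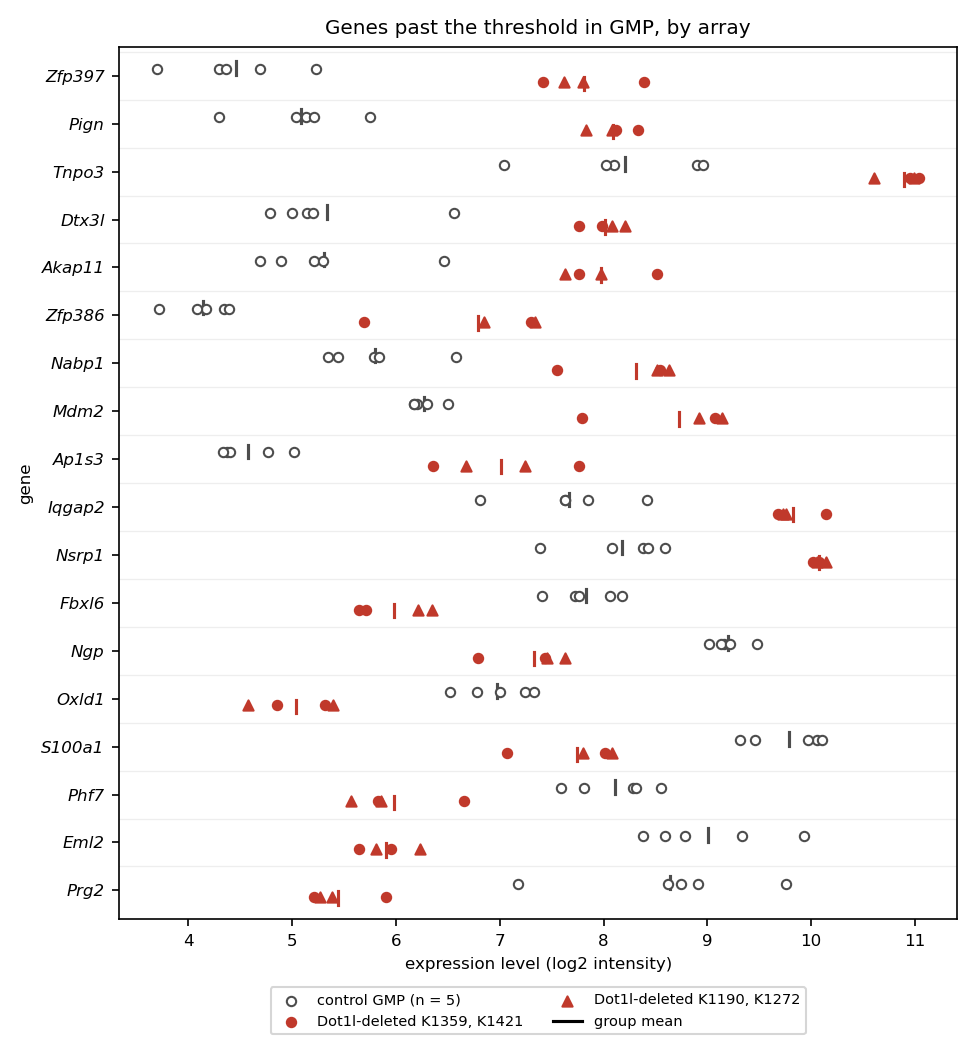
Expression level (log2 intensity) of the 18 genes that passed the threshold, on each of the 9 GMP arrays. Open circles are the 5 controls, red symbols the 4 Dot1l-deleted arrays with triangles for the close pair K1190 and K1272, and short lines are group means. In no gene do the groups overlap.

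The 11 genes that rose serve varied processes. Zfp397, a zinc finger gene, read 4.69, 4.29, 4.36, 5.23 and 3.70 in controls and 7.62, 7.80, 7.42 and 8.39 after deletion. It had the largest change of the 18, with a log2 fold change of 3.35 ± 0.34 (SE) and an adjusted p of 0.0146. Its 2 other probe sets gave -0.48 and 0.0042, so the change rests on 1 probe set. Pign, an enzyme gene of membrane anchor (GPI) synthesis, read 5.13, 5.21, 5.75, 5.04 and 4.29 in controls and 7.83, 8.08, 8.12 and 8.33 after deletion, a change of 3.0 ± 0.30 with an adjusted p of 0.0146. Each deleted array stood more than 2 log2 units above the highest control. Of 4 other Pign probe sets 3 were higher, the largest by 1.77.

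Tnpo3 encodes a transportin that carries splicing factors into the nucleus. It was among the brightest of the 18, at 7.04, 8.90, 8.10, 8.96 and 8.02 in controls and 10.99, 10.61, 10.95 and 11.04 after deletion, a log2 fold change of 2.70 ± 0.39 (SE) with a limma adjusted p of 0.0446. The deleted arrays were close to each other, with an SD of 0.20 against 0.78 in controls. Nsrp1, which encodes a splicing regulator of nuclear speckles, was tighter still after deletion, at 10.14, 10.06, 10.02 and 10.08 against 7.39, 8.59, 8.38, 8.08 and 8.43, a change of 1.90 ± 0.28. Both genes' other probe sets pointed the same way but were weak. They gave 0.51 ± 1.06 and 0.91 ± 0.65 for Tnpo3 and 0.68 ± 0.59 for Nsrp1, with limma unadjusted p of 0.64, 0.19 and 0.28.

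Mdm2 encodes the ubiquitin ligase that limits p53 and is itself a p53 target. Control values were closely grouped at 6.20, 6.17, 6.17, 6.5 and 6.30, and the deleted arrays read 8.92, 9.14, 9.07 and 7.79. Its log2 fold change was 2.46 ± 0.31 (SE) with an adjusted p of 0.041, while 2 other probe sets gave 1.15 and 0.15. Dtx3l, a ubiquitin ligase gene that acts with PARP9 in DNA damage and interferon responses, read 5.0, 5.14, 6.56, 5.20 and 4.79 in controls and 8.21, 8.08, 7.76 and 7.99 after deletion, a change of 2.67 ± 0.36. Its other probe set gave 1.90. Nabp1, which encodes a single-strand DNA binding protein, rose by 2.51 ± 0.34, from 5.34 to 6.58 in controls to 7.55 to 8.63 after deletion. Of its 5 other probe sets only 2 went the same way.

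Among the remaining genes that rose, Akap11, an anchoring protein gene of protein kinase A, changed by 2.66 ± 0.37 (SE), Zfp386 by 2.66 ± 0.36, the adaptor complex subunit gene Ap1s3 by 2.43 ± 0.32 and the scaffold gene Iqgap2 by 2.16 ± 0.32. Iqgap2 was the brightest of them, at 7.67 ± 0.58 (SD, n = 5) and 9.83 ± 0.21 (n = 4). Zfp386 was lowest on the deleted K1421, at 5.69, and still above the highest control, at 4.39. The other probe set of Iqgap2 gave 0.71 ± 0.79 (SE) and that of Zfp386 0.68 ± 0.58. The 11 genes differed in level and in role, and Tnpo3 was the only nuclear transport receptor and Pign the only anchor synthesis gene among them.

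The 7 genes that fell include a pair of granulocyte products. Prg2, which encodes the major basic protein of eosinophil granules, read 9.76, 8.62, 8.75, 7.18 and 8.91 in controls and 5.27, 5.38, 5.21 and 5.90 after deletion. The deleted arrays were all below 6, and the nearest control was K1604. Its log2 fold change was -3.20 ± 0.45 (SE), with a limma adjusted p of 0.0446. Ngp, the neutrophilic granule protein gene, read 9.16, 9.48, 9.13, 9.22 and 9.02 in controls and 7.46, 7.63, 6.79 and 7.44 after deletion, a change of -1.87 ± 0.24 with an adjusted p of 0.041. In bulk RNA fewer cells of a type and less RNA per cell cannot be told apart.

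Eml2, a microtubule-binding protein gene, read 8.38, 9.93, 9.33, 8.59 and 8.79 in controls and 5.81, 6.23, 5.64 and 5.95 after deletion, a log2 fold change of -3.10 ± 0.34 (SE) with an adjusted p of 0.0191. The gap between the groups, from 6.23 to 8.38, was the widest among the genes that fell. S100a1, a calcium-binding protein gene, fell by 2.04 on the log2 scale, from 9.78 ± 0.37 (SD, n = 5) to 7.74 ± 0.46 (n = 4), but its other probe set gave 0.069. Phf7, a PHD finger gene, changed by -2.13 ± 0.31 (SE), and its 4 other probe sets were lower by between 0.029 and 2.44. Oxld1 changed by -1.94 ± 0.28 and Fbxl6, an F-box gene, by -1.85 ± 0.26. Without K1190 and K1272 the log2 fold change of the 7 genes stayed between -3.21 for Eml2 and -1.86 for Phf7, though a lack of overlap fixes the sign in advance.

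**Figure D2:**
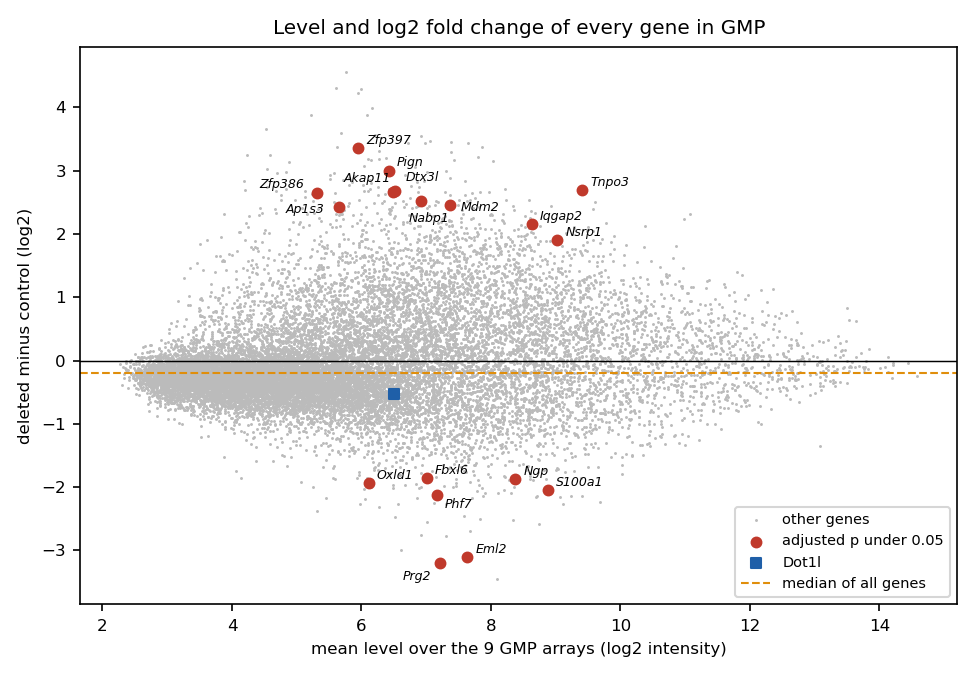
Mean level over the 9 GMP arrays (log2 intensity) against the log2 fold change, deleted minus control, for 18194 genes. Red points are the 18 called genes, the blue square is Dot1l, and the dashed line is the median of all genes, at -0.20.

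The array as a whole was slightly lower after deletion, while brighter genes were centred near 0. Over all genes the log2 fold change had a median of -0.20, and 34.3% of genes were above 0. It was -0.14 with the close pair averaged, -0.03 without the pair and -0.08 after quantile normalization again. Among genes with a mean level of at least 6 it was 0.012, so a list of bright genes has a baseline near 0. Receptor genes of sensory neurons shared this shift. The 39 olfactory receptor genes had a median of -0.36 with 36 of 39 lower, and the 32 vomeronasal receptor genes had -0.30 with 29 of 32 lower. Without the pair these medians were -0.06 and -0.11. At an unadjusted p under 0.05, 5.98% of all genes were higher and 7.09% lower.

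Beyond the called genes, others with a mean level of at least 6 over the 9 arrays differed without overlap and did not pass the test. Several were dim in one group, such as Kifap3 and Gja1, with control means of 4.39 and 4.36. Kifap3, which encodes a kinesin-associated protein, read 3.83, 3.26, 4.78, 6.05 and 4.05 in controls and 7.57, 6.89, 9.55 and 9.52 after deletion. Its log2 fold change was 3.99 ± 0.70 (SE) with a limma adjusted p of 0.0953. Gja1, the connexin 43 gene, had 3.88 ± 0.80, Dnajb4, a co-chaperone gene, 3.47 ± 0.68, Mrpl1, a mitochondrial ribosome gene, 3.46 ± 0.68, Ap3b1, an adaptor complex gene, 3.38 ± 0.84, and Ndufs1, a complex I gene, 3.05 ± 0.58. On the lower side were Mfsd13a at -3.45 ± 1.12, Lrmda at -2.99 ± 0.65, the neurotrophic factor gene Nenf at -2.50 ± 0.67, the glutathione synthetase gene Gss at -2.47 ± 0.69 and Atn1 at -2.31 ± 0.60. The 11 genes differ in role, and the groups overlapped in none of them.

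Genes of mitosis were mostly higher after deletion, with no member past the adjusted threshold. Of 49 measured, 41 had a log2 fold change above 0, 14 were higher and 1 lower at an unadjusted p under 0.05, and the median was 0.91 against -0.20 for all genes. Hmmr, a spindle-associated receptor gene, read 3.79, 5.65, 4.22, 5.29 and 4.39 in controls and 7.93, 7.44, 6.41 and 6.41 after deletion, a change of 2.38 ± 0.47 (SE). The kinesin motor gene Kif11 read 4.66, 6.27, 7.64, 7.26 and 5.92 against 10.23, 10.12, 7.91 and 8.45, a change of 2.83 ± 0.68. In both genes the close pair was highest and all 4 deleted arrays exceeded every control. Over the alternative settings of the processing the change ran from 0.67 to 2.97 for Hmmr and from 1.83 to 3.84 for Kif11.

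Bub1, a checkpoint kinase gene, had a log2 fold change of 2.63 ± 0.64 (SE) and the condensin gene Smc2 2.52 ± 0.71, with overlapping groups in both. Cdc20, the activator of the anaphase-promoting complex, went the other way, at -1.09 ± 0.37. It read 10.06, 9.65, 10.32, 10.37 and 10.13 in controls and 9.42, 9.07, 7.87 and 9.72 after deletion, and when probe sets that can match several transcripts were left out its change was 0.03. As a mean over the list, the control arrays lay between -0.76 and -0.04 relative to the mean of all 9 arrays and the deleted arrays between 0.09 and 0.79. The list median was 0.83 with the close pair averaged and 0.64 without it. Other cell cycle lists did not share this rise. DNA replication genes had a median of 0.03, with 25 of 46 above 0. G1 cyclins and CDK inhibitors had -0.17, with 10 of 27 above 0.

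Promoters of 4 of these genes are shown because many mitotic genes share a CCAAT box and a cell cycle homology region upstream of their start. They are the 250 bases before the start from RefSeq, build GRCm38.p6, read 5′ to 3′ along the gene, with the letters CCAAT and TTTGAA on either strand in capitals. The window of Hmmr is chr11:40733438-40733687 on the minus strand, that of Kif11 chr19:37376132-37376381 on the plus strand, that of Bub1 chr2:127831860-127832109 on the minus strand and that of Cdc20 chr4:118437344-118437593 on the minus strand.
Hmmr: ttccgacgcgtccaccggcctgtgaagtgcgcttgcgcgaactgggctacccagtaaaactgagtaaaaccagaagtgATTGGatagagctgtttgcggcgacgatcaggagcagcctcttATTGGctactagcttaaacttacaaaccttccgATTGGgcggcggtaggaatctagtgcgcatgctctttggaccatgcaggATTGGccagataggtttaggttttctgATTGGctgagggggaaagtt
Kif11: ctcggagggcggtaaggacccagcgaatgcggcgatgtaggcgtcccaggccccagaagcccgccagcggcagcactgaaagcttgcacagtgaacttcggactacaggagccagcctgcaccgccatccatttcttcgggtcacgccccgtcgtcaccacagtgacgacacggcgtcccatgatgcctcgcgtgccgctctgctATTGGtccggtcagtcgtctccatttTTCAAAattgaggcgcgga
Bub1: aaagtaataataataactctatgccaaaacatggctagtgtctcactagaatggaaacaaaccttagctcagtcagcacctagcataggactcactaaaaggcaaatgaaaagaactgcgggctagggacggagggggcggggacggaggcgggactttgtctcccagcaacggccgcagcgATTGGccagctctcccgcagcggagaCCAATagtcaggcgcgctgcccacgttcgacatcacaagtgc
Cdc20: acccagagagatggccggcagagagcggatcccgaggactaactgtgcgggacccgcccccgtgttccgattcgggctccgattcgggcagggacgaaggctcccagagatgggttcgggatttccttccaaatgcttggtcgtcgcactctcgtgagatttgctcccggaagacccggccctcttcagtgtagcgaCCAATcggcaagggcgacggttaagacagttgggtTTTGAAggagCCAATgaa
Hmmr holds 5 CCAAT matches, all on the reverse strand, and Bub1 holds 2. Kif11 has 1 CCAAT match 45 bases before the start and 1 TTTGAA match 19 bases before it. Cdc20 has a CCAAT match 53 bases and a TTTGAA match 18 bases before its start. CCAAT was found upstream of 30 of the 41 mitosis genes with a promoter entry and TTTGAA upstream of 16 of 41. Among the 14453 measured genes with an entry the shares were 39.4% for CCAAT and 14.1% for TTTGAA. Among all 27025 genes of the table, measured or not, they were 37.5% and 18.3%. In the printed sequences no CCAAT match overlaps a TTTGAA match, and a match is a description of the sequence alone.

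**Figure D3:**
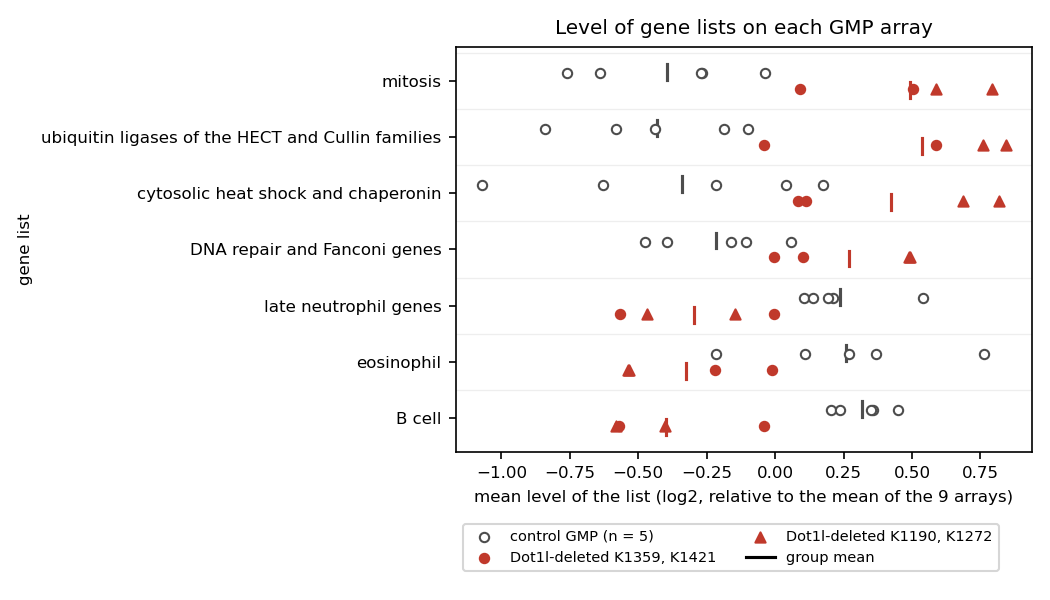
Mean level of 7 gene lists on each GMP array (log2, relative to the mean of the 9 arrays). Open circles are controls, red symbols are Dot1l-deleted arrays with triangles for K1190 and K1272, and short lines are group means. For mitosis, ubiquitin ligase, late neutrophil and B cell genes the groups do not overlap.

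Ubiquitin ligases of the HECT and Cullin families, which tag proteins for degradation, were higher in similar proportion. Of 32 measured, 28 were above 0, 10 were higher and 0 lower at an unadjusted p under 0.05, and the median log2 fold change was 0.96, or 0.78 without the close pair. Smurf2, a ligase of TGF-beta signalling, read 6.12, 7.89, 6.57, 5.11 and 6.23 in controls and 9.03, 9.36, 8.91 and 8.40 after deletion, a change of 2.54 ± 0.49 (SE). Herc4 had 2.83 ± 0.60, Ube3a, the Angelman syndrome ligase, 2.30 ± 0.62 and the F-box gene Fbxl12 1.85 ± 0.35. In these 4 genes the groups did not overlap, and the limma adjusted p lay between 0.107 and 0.232. Over the alternative settings of the processing their changes ran from 1.07 to 2.92 for Smurf2 and from 0.80 to 3.17 for Herc4. They ran from 1.27 to 2.60 for Ube3a and from 1.46 to 2.06 for Fbxl12. Ube3b was lower, at -0.40 ± 0.28. The list holds Fbxl12 but not Fbxl6, another F-box gene, which was called lower at -1.85 ± 0.26. On the array K1359 the list mean was -0.04, close to the highest control, at -0.10, and the other deleted arrays had 0.59 to 0.84.

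Importins, exportins and transportins, the carriers through the nuclear pore, were gathered after the value of Tnpo3 was seen. Of 22 measured, 16 were above 0, 8 were higher and 1 lower at an unadjusted p under 0.05, and the median was 1.15, or 0.96 without the close pair. Tnpo3 passed the adjusted threshold. Kpnb1, the main import carrier, went from 10.09 ± 0.73 (SD, n = 5) to 11.71 ± 0.50 (n = 4), and its partner gene Kpna3 from 6.07 ± 1.65 to 8.58 ± 0.19. Ipo7, an importin gene, had a log2 fold change of 1.74 ± 0.42 (SE). Ipo13, which works in both directions, was lower at -0.93 ± 0.40.

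Heat shock and chaperonin genes were nearly all above 0. Of 28 measured, 27 had a positive log2 fold change, 6 were higher and 0 lower at an unadjusted p under 0.05, and the median was 0.59, falling to 0.37 without the close pair, when 1 was higher and 1 lower. Dnajb4 read 4.31, 7.41, 4.0, 6.57 and 5.27 in controls and 8.37, 8.77, 9.73 and 9.05 after deletion. Hspd1, the mitochondrial HSP60 gene, had 1.04 ± 0.39 (SE), Hspa4 1.28 ± 0.49 and the chaperonin subunit gene Cct6a 1.04 ± 0.42, each with overlapping groups. The single member below 0 was Hspb1, the small heat shock protein HSP27, at -0.70 ± 0.34. Control K1603 was the lowest array for this list, at -1.07, and controls K1602 and K1581 reached 0.17 and 0.04, beside 0.11 and 0.08 on the deleted K1359 and K1421.

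The upstream 250 bases of Hspd1 and Hspb1, members at either side of 0, are printed with the core of the heat shock element, GAANNTTC, in capitals on either strand. They come from the same RefSeq table, at chr1:55087933-55088182 on the minus strand and chr5:135887669-135887918 on the plus strand. Hspd1 has 2 promoter entries in that table. The entry with the most matches was the one printed, so a match there was favoured by the choice.
Hspd1: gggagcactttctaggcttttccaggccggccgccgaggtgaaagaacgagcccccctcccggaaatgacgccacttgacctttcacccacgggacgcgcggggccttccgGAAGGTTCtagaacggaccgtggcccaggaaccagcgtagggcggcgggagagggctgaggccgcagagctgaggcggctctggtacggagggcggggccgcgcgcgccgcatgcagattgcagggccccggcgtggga
Hspb1: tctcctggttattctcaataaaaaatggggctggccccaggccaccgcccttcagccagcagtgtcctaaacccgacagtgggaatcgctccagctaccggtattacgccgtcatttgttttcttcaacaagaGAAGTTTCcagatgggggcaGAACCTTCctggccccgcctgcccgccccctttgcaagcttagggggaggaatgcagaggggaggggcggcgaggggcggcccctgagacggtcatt
Hspd1 has 1 match, 139 bases before the start, and Hspb1 has 2, at 117 and 97 bases. The core was found in 8 of the 25 listed genes with a promoter entry, in 6.6% of the measured genes with one and in 7.73% of all genes of the table.

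DNA repair and Fanconi genes included the called Dtx3l. Of 47 measured, 32 were above 0 and 9 were higher and 0 lower at an unadjusted p under 0.05, with a median log2 fold change of 0.32. Without the close pair the median was 0.01 with 6 higher and 1 lower. Nbn, a subunit of the break-sensing MRN complex, read 4.44, 6.35, 5.24, 5.65 and 4.86 in controls and 8.09, 7.99, 6.84 and 7.25 after deletion, a change of 2.23 ± 0.42 (SE). Ercc3, a helicase gene of nucleotide excision repair, read 4.75, 5.11, 4.86, 4.82 and 4.85 against 6.18, 6.14, 8.26 and 6.59, a change of 1.92 ± 0.42. Both were without overlap. Parp9, the partner of Dtx3l, had 1.63 ± 0.47 with 1 control, K1602, level with the close pair at about 6.63. Fancc was lower at -0.85 ± 0.41.

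Among the p53 targets Mdm2 alone passed the adjusted threshold. Of 19 measured, 7 were above 0, and Mdm2 was the single member at an unadjusted p under 0.05. The median log2 fold change was -0.13, and 0.02 with each array's upper quartile in the model. Ccng1, a cyclin gene, had 1.76 ± 0.80 (SE) and the growth arrest gene Gadd45a 1.44 ± 0.68. In both the close pair was highest, and without it they had 0.72 and 0.25. Sesn1 had -1.58 ± 0.89. Interferon response genes, of interest because pIpC acts through interferon, were mixed. Of 46 measured, 26 were above 0, with 7 higher and 4 lower at an unadjusted p under 0.05 and a median of 0.10. Dtx3l was called, Oasl2 had 1.22 ± 0.36 and Isg20, an exonuclease gene, -1.11 ± 0.33.

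Enzymes and assembly factors of protein synthesis were more often above 0 than all genes, and none was called. Of 22 aminoacyl-tRNA synthetase genes, 14 were above 0, with 5 higher and 1 lower at an unadjusted p under 0.05 and a median of 0.59 in log2 fold change. That median was 0.06 without the close pair and 0.20 with each array's upper quartile in the model. Eprs read 8.59, 8.38, 8.0, 8.20 and 8.34 in controls and 9.50, 9.41, 8.85 and 9.77 after deletion, a change of 1.08 ± 0.25 (SE) without overlap. The mitochondrial enzyme gene Fars2 had -1.99 ± 0.75. Of 43 ribosome biogenesis and MYC-driven genes 29 were above 0, with a median of 0.27, led by Heatr1 at 2.97 ± 0.69 and the nucleolin gene Ncl at 1.13 ± 0.30, both without overlap.

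Most structural ribosomal and respiratory chain genes were lower, as were most genes of the array. Of 44 cytosolic ribosomal protein genes 37 were lower, 4 of them (9.09%) at an unadjusted p under 0.05, near the 7.09% of all genes. All genes had a median log2 fold change of -0.20, and those with a mean level of at least 6 had 0.012. The median of this list was -0.19. It was -0.26 without the close pair, against -0.03 for all genes, and -0.18 after quantile normalization again, against -0.08. Rps9 read 13.69, 13.76, 13.64, 13.68 and 13.61 in controls and 12.40, 12.66, 13.61 and 10.62 after deletion, so K1359 met the lowest control. Its change of -1.35 ± 0.49 (SE) became 0.0084 when probe sets that can match several transcripts were left out. Of 74 mitochondrial ribosome genes 52 were lower, 9 against 1 higher at an unadjusted p under 0.05, with a median of -0.33 and of -0.51 without the close pair. Mrpl14 had -1.07 ± 0.28 and Mrpl34 -0.88 ± 0.25, both without overlap. Mrpl1 had 3.46, and -0.43 when probe sets that can match several transcripts were left out. Of 71 oxidative phosphorylation genes 54 were lower, 10 against 2 at an unadjusted p under 0.05. Those 10 are 14.1% of the list, against 7.09% of all genes. The list's median was -0.21, near the -0.20 of all genes but below the 0.012 of genes with a mean level of at least 6. It was -0.13 without the close pair, against -0.03 for all genes, and -0.27 after quantile normalization again, against -0.08. Among complex I genes Ndufs7 had -1.25 ± 0.39 and Ndufv1 -1.16 ± 0.44, and Ndufs1 lay on the higher side.

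Membrane trafficking and anchor synthesis genes held large single differences in both directions. Of 41 SNARE and vesicle fusion genes, 5 were lower on every deleted array than on every control and 0 higher, with 7 lower and 3 higher at an unadjusted p under 0.05 and a median of 0.03 in log2 fold change. Over all genes 2.97% were lower and 1.81% higher without overlap. Use1, a SNARE gene of the endoplasmic reticulum, read 10.32, 11.05, 10.96, 11.23 and 9.93 in controls and 9.34, 9.18, 9.31 and 8.90 after deletion, a change of -1.52 ± 0.31 (SE). Vamp8, which acts in granule release, had -1.08 ± 0.34, Stx8 -1.01 ± 0.28 and Vamp5 -1.43 ± 0.29. Vamp5 had 0.07 when probe sets that can match several transcripts were left out.

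Of 27 genes of GPI anchor synthesis 10 were above 0 and the median was -0.42, or -0.16 without the close pair. Pign rose, while Pigyl had a log2 fold change of -1.70 ± 0.34 (SE) and Pigc, which works in the first step of the pathway, -1.45 ± 0.41, both without overlap. Pigo, which like Pign adds ethanolamine phosphate, had 1.32 ± 0.37, and -0.34 when probe sets that can match several transcripts were left out. Of 25 genes of cholesterol and isoprenoid synthesis, 13 were above 0 and the median was 0.01. Fdps, the farnesyl diphosphate synthase gene, read 7.65, 8.05, 7.29, 8.76 and 8.86 in controls and 6.65, 6.53, 5.86 and 4.94 after deletion, a change of -2.12 ± 0.45. Mvk had -0.89 ± 0.27, Sqle -1.43 ± 0.54 and Sc5d 2.17 ± 0.72.

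Cytokine signalling showed the same mix. Of 42 receptor and JAK-STAT genes 19 were above 0, against 34.3% of all genes, and 5 were lower on every deleted array with 0 higher, against 2.97% and 1.81% of all genes. Il3ra, the interleukin 3 receptor alpha chain gene, read 7.34, 7.29, 7.14, 7.24 and 6.92 in controls and 6.19, 5.91, 6.58 and 6.22 after deletion, a log2 fold change of -0.96 ± 0.23 (SE) with a limma adjusted p of 0.179. Socs3, the feedback inhibitor of STAT3, had -1.12 ± 0.30 and the TNF receptor gene Tnfrsf1a -1.35 ± 0.48. Kit had 1.24 ± 0.41. Of 19 telomerase and Cajal body genes 8 were above 0, and 5 were without overlap on the lower side, where 2.97% of all genes lay. Wrap53, which brings telomerase to Cajal bodies, read 7.94, 6.54, 7.21, 7.15 and 6.32 in controls and 4.53, 4.40, 5.45 and 5.02 after deletion, a change of -2.18 ± 0.37 with an adjusted p of 0.0871. Gemin2, of the SMN complex, had -2.0 ± 0.54, the telomere gene Ten1 -1.38 ± 0.43 and Terf1, which binds telomere repeats, 1.66 ± 0.62.

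**Figure D4:**
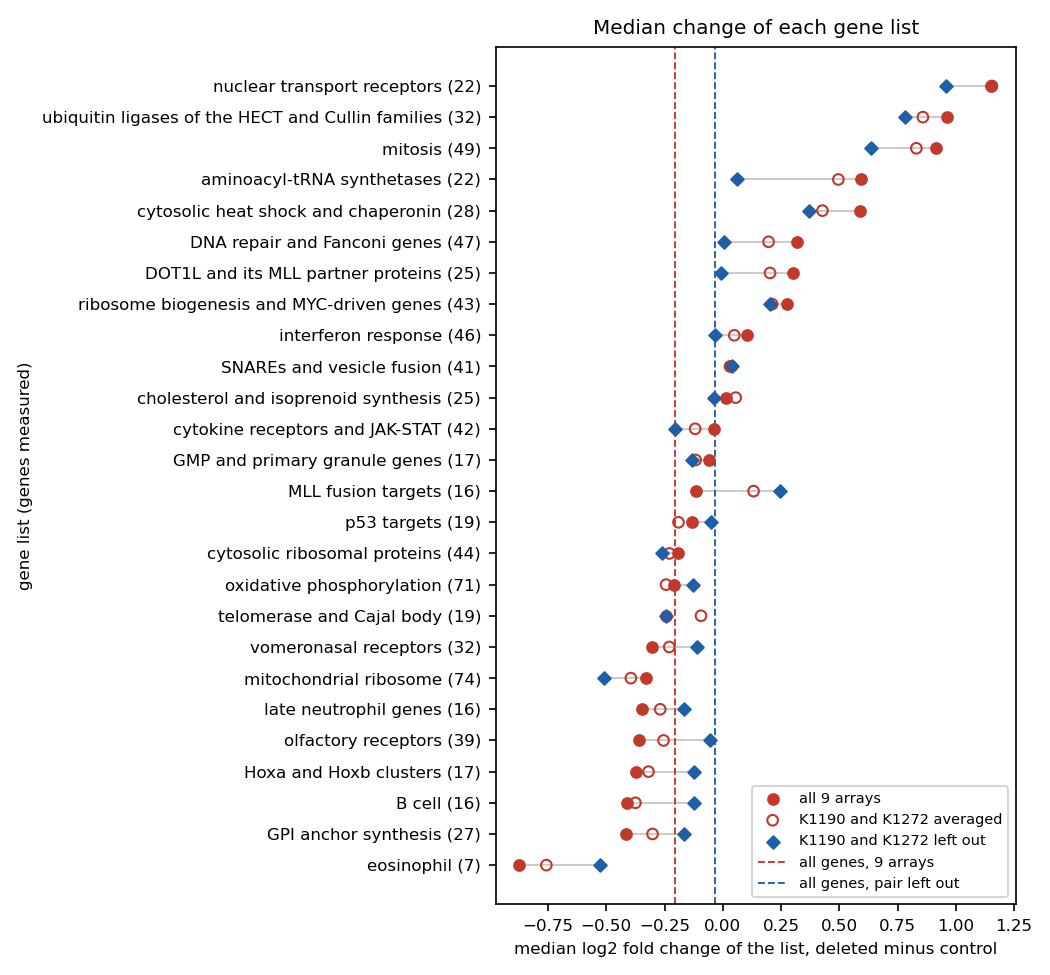
Median log2 fold change, deleted minus control, of each gene list with the number of genes measured. Filled red points use all 9 arrays, open points average K1190 and K1272, blue diamonds leave both out, and dashed lines mark the medians of all genes, at -0.20 and -0.03. Mitosis and ubiquitin ligases stay at or above 0.64 in all 3, and DNA repair and aminoacyl-tRNA synthetases come down to at most 0.06 without the pair. Nuclear transport also stays above 0.64, but was gathered after the rise of its member Tnpo3 was seen. The 3 settings share all controls and the deleted K1359 and K1421, so they are not independent.

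Granulocyte maturation genes were lower for some products and not for others. Of 17 GMP and primary granule genes, 7 were above 0, 1 was higher and 2 lower at an unadjusted p under 0.05, and the median log2 fold change was -0.06. Cebpa, the transcription factor that drives granulocyte commitment, read 11.08, 10.57, 11.97, 11.68 and 10.48 in controls and 9.70, 9.92, 10.19 and 9.98 after deletion, a change of -1.20 ± 0.35 (SE) without overlap and with an adjusted p of 0.253. Of 16 late neutrophil genes 12 were lower, 3 at an unadjusted p under 0.05 with 0 higher, where 7.09% of all genes were lower. Their median was -0.34, against -0.20 for all genes. Without the close pair 7 of the 16 were above 0, and the median was -0.16, against -0.03 for all genes. In that setting 4 were lower and 0 higher at an unadjusted p under 0.05. Besides the called Ngp, the cathelicidin gene Camp read 10.80, 10.13, 10.75, 9.84 and 9.57 against 8.63, 7.61, 7.66 and 9.58, a change of -1.85 ± 0.45. The calprotectin subunit gene S100a9 had -0.96 ± 0.47 and Anxa1 1.05 ± 0.67.

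The eosinophil list was small and not uniform. Of 7 measured genes of 10 listed, 6 were lower, 3 against 1 higher at an unadjusted p under 0.05, with a median log2 fold change of -0.87, or -0.53 without the close pair. Beside Prg2, the related granule gene Prg3 had -1.09 ± 0.43 (SE) and the eosinophil peroxidase gene Epx -0.90 ± 0.36, with group means for Epx of 4.73 and 3.83, near the dim end of the array. Siglecf, a receptor of mature eosinophils, read 4.96, 8.15, 6.03, 6.14 and 7.72 in controls and 8.46, 8.90, 9.20 and 8.25 after deletion, opposite to Prg2, with 2.10 ± 0.60. As a mean, the list lay between -0.22 and 0.76 in controls and between -0.54 and -0.01 after deletion.

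B cell genes, which mark another lineage, were lower in 16 of 16 measured, with 0 called. At an unadjusted p under 0.05, 5 of them were lower, against 7.09% of all genes. Their median log2 fold change was -0.41, against -0.20 for all genes. The olfactory receptor genes had -0.36, with 36 of 39 lower. Without the close pair 4 of the 16 B cell genes were above 0, and their median was -0.12, against -0.03 for all genes. The mean level of the B cell list was 0.20 to 0.45 on control arrays and -0.58 to -0.04 on deleted arrays. Vpreb1, a surrogate light chain gene, read 8.55, 5.44, 10.64, 10.45 and 9.31 in controls and 7.36, 5.81, 5.38 and 6.17 after deletion, while Ms4a1, the CD20 gene, was dim in both groups, at 3.35 and 2.95. Cd37, a membrane protein gene of B cells and other leukocytes, had -2.27 ± 0.63 (SE) and was without overlap. Of 16 erythroid genes 6 were above 0 and of 20 endothelial and stromal genes 5, with medians of -0.06 and -0.20. Monocyte and macrophage genes had a median of 0.22 and stem cell genes 0.22, both near 0 without the close pair, at -0.02 and 0.0042. The part of other cell types in the results was not tested.

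Genes tied to DOT1L by mechanism held 0 of the 18 calls, which is near the 0.0605% and 0.0385% of all genes called. Of 25 measured genes of DOT1L and its MLL partner proteins, 17 were above 0, 1 was higher and 2 lower at an unadjusted p under 0.05, and the median log2 fold change was 0.30, or -0.01 without the close pair. Mllt1, which encodes ENL, had -1.15 ± 0.51 (SE), Ell -0.76 ± 0.34 and the elongation factor gene Ell2 1.43 ± 0.61, the last from the close pair, which read 5.29 and 6.06 where all other arrays lay between 2.51 and 3.22. Of 16 MLL fusion targets 7 were above 0 and the median was -0.11, but it was 0.13 with the close pair averaged, 0.24 without it, 0.12 without the low-Xist controls, 0.15 with upper quartiles in the model and 0.07 after quantile normalization again. Mef2c, a transcription factor gene, read 8.52, 8.39, 6.42, 8.23 and 8.60 in controls and 9.75, 10.33, 9.26 and 8.91 after deletion, a change of 1.53 ± 0.48 without overlap.

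Of 17 Hoxa and Hoxb genes 14 were lower, and 0 were without overlap, which is near the 1.81% higher and 2.97% lower of all genes. Their median log2 fold change was -0.37, against -0.20 for all genes and -0.36 for the olfactory receptor genes. Without the close pair it was -0.13, against -0.03 for all genes and -0.06 for the olfactory receptor genes. Hoxa9, the homeobox gene most used in MLL-rearranged leukaemia, read 8.14, 9.37, 9.24, 8.44 and 7.65 in controls and 6.82, 6.74, 8.52 and 7.12 after deletion. The deleted K1359 lay inside the control range and the other 3 below it, and the change was -1.27 ± 0.47 (SE) with a limma adjusted p of 0.338. Hoxa7 had -0.59 ± 0.29 and Hoxb7 -0.57 ± 0.28. Hoxa10 had 1.11 ± 0.47 at a dim level of 3.37 ± 0.52 (SD, n = 5) in controls, and -0.17 when probe sets that can match several transcripts were left out.

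Short genes were more often lower and long genes more often higher. DOT1L's mark lies over gene bodies, and the genes were sorted after the values were seen by the span from start to end in the reference table. Among 7617 genes with a mean level of at least 6, the shortest decile, up to 4.09 kb, had 23.98% of genes lower and 1.83% higher at an unadjusted p under 0.05, and their median was -0.49 in log2 fold change. The eighth decile, from 39.4 to 57.8 kb, had 3.55% lower and 17.5% higher with a median of 0.36, and the longest decile 3.28% and 15.1% with 0.35. The median was higher in each decile than in the one before, up to the eighth. The called genes had a median span of 34.1 kb for the 11 that rose, from 11.9 kb for Zfp397 to 265 kb for Iqgap2, and of 3.21 kb for the 7 that fell, from 1.47 kb for Oxld1 to 30.1 kb for Eml2. Their ranges overlap, and Zfp397, Dtx3l, Nabp1 and Zfp386, which rose, have spans in the range of the fourth decile, where the median was -0.05.

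By array, the median level of the shortest decile, relative to the mean of the 9 arrays, was 0.06, 0.13, 0.47, 0.50 and -0.0048 in controls and -0.29, -0.40, -0.09 and -0.16 after deletion. That of the longest decile was -0.21, 0.08, -0.39, -0.12 and -0.04 in controls and 0.42, 0.49, -0.08 and 0.09 after deletion. The shortest genes thus separated the groups, while for the longest the close pair stood well above all others and K1359 lay inside the control range. Without the close pair the shortest decile had 12.5% lower and 0.917% higher, and the longest 4.86% lower and 6.04% higher. The lists differ in span as well, against a median of 20.2 kb for all genes. Medians were 78.9 kb for ubiquitin ligases, 49.7 kb for nuclear transport receptors and 29.9 kb for mitosis. They were 7.69 kb for mitochondrial ribosome genes, 3.37 kb for Hoxa and Hoxb genes and 3.31 kb for cytosolic ribosomal proteins. Span and change did not go together in every list. MLL fusion targets had 118 kb with a median log2 fold change of -0.11, and TGF-beta and SMAD genes 68.5 kb with -0.08. SWI/SNF and other remodellers had 72.7 kb with 0.53, and heat shock and chaperonin genes 12.8 kb with 0.59. The part of gene span in the changes of these lists was not tested.

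**Figure D5:**
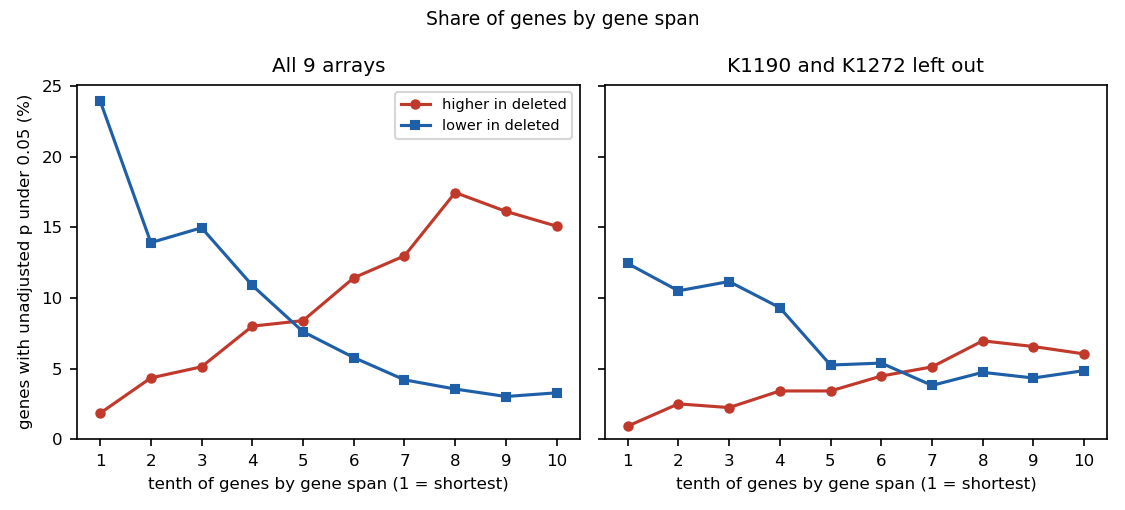
Percent of genes higher (red) or lower (blue) in Dot1l-deleted GMP at an unadjusted p under 0.05, by decile of gene span from shortest to longest, for genes with a mean level of at least 6. With all 9 arrays the lower share falls from 23.98% to 3.28%, and without K1190 and K1272 from 12.5% to 4.86%.

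The same comparison can be made in LSK cells, a less mature marrow fraction that holds the stem cells, of which 6 control and 6 Dot1l-deleted arrays were measured in the same way. Of the 18 genes called in GMP, 5 had an LSK effect of the same sign. Ngp had a log2 fold change of -2.49 ± 0.56 (SE) in LSK and Prg2 -1.52 ± 0.54, alongside -1.87 and -3.20 in GMP. A test of the difference between the effects over all 21 arrays called 6 genes, 0.033% of all, which were Dtx3l, Fdps, Wrap53, Emc8, Fbxl12 and Smurf2, with limma adjusted p from 0.0131 to 0.0331. Averaging the close pair left 1 call. Leaving out single arrays gave 21 calls when LSK K1359 of the deleted group was missing and 15 when LSK K1272 was. Of the GMP arrays, K1359 gave 13, K1601 gave 10, K1603 gave 3 and K1190 gave 1 when missing.

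Dtx3l was the only called GMP gene among these 6. Its LSK levels were 7.43 to 8.96 in controls and 6.40 to 8.24 after deletion, a log2 fold change of -0.72 ± 0.35 (SE), so the difference of effects was 3.39 ± 0.54 with an adjusted p of 0.0196, or 0.0582 with the close pair averaged. Control GMP, at 5.34 ± 0.70 (SD, n = 5), were far below control LSK, and the deleted GMP, at 8.01 ± 0.19 (n = 4), were within the LSK range. Fdps differed by -3.92 ± 0.55, as it was lower in deleted GMP and 1.79 ± 0.36 higher in deleted LSK, where the groups read 4.31 to 5.20 and 5.65 to 7.71. Emc8, a membrane insertion complex gene chosen for this test, behaved likewise, with -1.52 in GMP and 1.96 ± 0.37 in LSK. Its deleted LSK array K1272 stood apart at 11.46. The other deleted LSK arrays read 8.81 to 9.45 and control LSK 7.03 to 8.57. Wrap53 differed by -2.62 ± 0.39, Fbxl12 by 3.17 ± 0.53 and Smurf2 by 3.13 ± 0.54.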

How the data were processed

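Biotin-labelled RNA of sorted marrow cells was, per the labels' protocols, measured on Affymetrix mouse arrays. The authors deposited RMA values of 45101 probe sets on 21 arrays, per the submitters' processing notes, which give no version. They are intensities on a linear scale, as read from the values, and no scanner files or scan batches were used.

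Levels here are log2 of the deposited intensities, without a pseudocount. In the platform annotation 34958 probe sets carried 1 gene symbol, 932 several and 9211 none. A gene was represented by its brightest probe set over all arrays among those with 1 symbol, which left 18194 genes. Through Entrez identifiers, 34754 probe sets were found in a gene table of GRCm38.p6, and 0 symbols changed.

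Groups came from titles and genotype labels. GMP were fitted alone with limma 3.58.1 in R 4.3.3 (moderated variances, Benjamini-Hochberg over all genes, threshold 0.05), and the difference between the GMP and LSK effects with 4 group means over all 21 arrays. Both fits were tested on simulated data with independent arrays. That simulation held no close pair, so it cannot show how K1190 and K1272 affect the calls. Of 61 gene lists 23 are described with named members, and 4 more lists of other cell types by counts or medians alone, with no set test. A few others appear only beside the mitosis genes or the gene spans. The members, lists and comparisons were chosen with earlier results of these data known, and the nuclear transport, sensory receptor and gene span groupings after values of this fit were seen.

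Genes were named by a rule: Dot1l, sort markers, called genes without overlap, the largest changes without overlap at a mean level of at least 6, the members with the smallest p in every list described and those opposite to them, and sex-linked genes. Emc8, Mpo, Elane, Ms4a1 and the nuclear transport genes other than Tnpo3 were named outside it.

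Alternatives changed the scaling (quantile again, median centring, upper quartile in the model), the level filter (mean of 6), the offset (16 added before log2), the probe set, the variances (trended and robust, array weights) and the arrays (all 21, K1190 and K1272 averaged, each left out). Leaving out both close arrays, or both low-Xist controls, was added after the data were seen. Promoter windows of 250 bases came from a RefSeq table of GRCm38.p6 and were searched with Python 3.11.15.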

Additional observations from a re-analysis of the deposited data

Results flagged for a closer look

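Of 106 groups of 4 or 5 arrays examined, 6 held an array far from the others, where chance gives about 1 in 20. In Dot1l-deleted GMP, array K1421 was lowest for Fcgr3, at 8.46 with the next at 10.18, and for Mdm2, at 7.79 with the next at 8.92. It was highest for Iqgap2, at 10.14 with the next at 9.76. Array K1359 was lowest for Nabp1, at 7.55 with the next at 8.52. Among controls K1603 was highest for Dtx3l, at 6.56 with the next at 5.20, and K1602 was highest for the mean of late neutrophil genes, at 0.54 with the next at 0.21.

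The effect of Dot1l loss differed between GMP and LSK by limma over all 21 arrays for Dtx3l by 3.39 on the log2 scale (adjusted p of 0.0196), Fbxl12 by 3.17 (0.0297), Smurf2 by 3.13 (0.0331), Fdps by -3.92 (0.0131) and Wrap53 by -2.62 (0.016). With K1190 and K1272 averaged, 1 gene of the whole array passed this test, and Dtx3l had an adjusted p of 0.0582.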

How the results depend on the processing

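The 18 calls of Dot1l-deleted against control GMP (11 higher, 7 lower) depended strongly on the processing. Their number was 38 (21 and 17) with array upper quartiles in the model, 2 (1 and 1) among genes with a mean level of at least 6, 3 (3 and 0) with trended and robust variances, and 5225 (1801 and 3424) with array weights. Those weights were largest for the close pair, 8.68 for K1190 and 2.77 for K1272, and 0.33 to 1.62 for the other arrays. The number of calls was 390 (216 and 174) with all 21 arrays but deleted LSK K1272, 0 (0 and 0) with K1190 and K1272 averaged or left out, and 7 (6 and 1) without both low-Xist controls, the last 2 settings chosen after seeing the data. The lower calls alone moved to 4 with the mean of all probe sets, 4 without probe sets that can match several transcripts and 11 with all 21 arrays. Leaving out each array gave 0 to 46 calls, 0 to 39 higher and 0 to 7 lower. Pign was called in 19 of 24 alternatives, Eml2 in 17 and Zfp397 in 16 of 23, and 0 of the 18 genes in every one.

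The 6 differences between the GMP and LSK effects became 15 without deleted LSK K1272, 1 with the close pair averaged and 1 to 21 with single arrays left out. With the K number as a replicate block there were 0 calls by limma, with a smallest adjusted p of 0.375, that of Dtx3l among them, and 1571 genes at an unadjusted p under 0.05. Arrays of the same number did not deviate together throughout, with correlations from -0.397 to 0.272, and control and deleted GMP share no number, so no block could be fitted between them.

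Some log2 fold changes of named genes changed sign. Fcgr3, at -0.061, had -0.30 to 0.39 with single arrays left out, 0.013 with arrays centred on their medians, 0.19 with array weights, 0.013 without the low-Xist controls, 0.12 without control K1602, 0.037 without control K1604 and 0.39 without deleted K1421. Il7r had 0.10 with quantile normalization again, 0.011 with centred arrays, 0.036 with the pair averaged, 0.23 without it, 0.028 without control K1604, 0.014 without deleted K1190 and 0.058 without deleted K1272. With the probe set brightest over GMP arrays Zfp397 had -0.48 and Ell2 -0.66. Without probe sets that can match several transcripts the values were -0.20 for Fcgr2b, -0.33 for Nabp1, 0.069 for S100a1, -0.43 for Mrpl1, -0.020 for Bsdc1, 0.027 for Cdc20, 0.29 for Sesn1, 0.0084 for Rps9, 0.066 for Vamp5, -0.34 for Pigo, -0.23 for Hexim1 and -0.17 for Hoxa10. The cause was not tested for any of these. Signal over background is not given for these arrays, which limits dim genes.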
